A study of Mus musculus with 8 samples.

Results

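The genes described here are 10 members of the Hoxc and Hoxd clusters, Hoxc4, Hoxc5, Hoxc6, Hoxc8, Hoxc9, Hoxc10, Hoxd3, Hoxd4, Hoxd8 and Hoxd9. They were chosen as named cluster members, and every non-control probe whose RefSeq accession maps to one of these symbols was taken. This gave 10 probes, 1 for each gene, of 55681 non-control probes on the array and of 20641 genes that could be named and given a level. RNA of 8 samples of primary spheres was measured on Agilent arrays with a single dye. Spheres are floating aggregates grown from dissociated cells of the superior mesenteric ganglion, a sympathetic ganglion of the abdomen. The donors were 3-week-old mice of the strain background 129+Ter/SvJcl, hemizygous for TH-MYCN (TH-MYCN+/-), a transgene in which a tyrosine hydroxylase promoter drives human MYCN in sympathetic cells and which gives rise to neuroblastoma. Cells of each of 4 animals were divided between a medium with retinoic acid (RA) and a medium without it and were cultured for 8 days, so that 4 RA-containing and 4 RA-free arrays formed 4 pairs. Both media carried the same transgene, and neither wild-type ganglion nor uncultured tissue is among these samples. The concentration of RA is not given in the sources used here.

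Hox genes encode homeodomain transcription factors that give cells their position along the body axis. They lie in 4 clusters, in which genes with low numbers are expressed from more anterior levels of the body and genes with high numbers only posteriorly, and genes of one number in different clusters are paralogs. RA, bound to its receptors, is known to switch on low-numbered Hox genes in the embryo and in cultured cells, and Hox genes of the middle numbers mark trunk levels, from which sympathetic ganglia arise. Hoxc9 is known to take part in the RA-induced differentiation of human neuroblastoma cell lines.

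A spot counts as detected, or well above background, where the scanner software set that flag, and is otherwise called at background here. Between 48.5% and 55.3% of the non-control spots were well above background on each array. The RA-free minus RA-containing comparison called 64.3% of 13539 tested genes at an adjusted p under 0.05, 28.2% lower and 36.1% higher in RA-free medium, by limma with the animal as a block and Benjamini-Hochberg adjustment. Over all tested genes, the median change was 0.07 on the log2 scale. It was −0.03 to −0.01 when the arrays were scaled on always-detected probes or by quantile normalization, and 0.23 when scaled on spike-in controls. In bulk RNA, fewer cells of a type and less RNA per cell cannot be told apart.

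The markers of the labelled cell type were present, as all 12 listed sympathetic neuroblast markers, among them Hand2, Gata3 and Dbh, were well above background on all 8 arrays. Their summed level, on a scale where the 75th percentile of an array is 1, was 897 to 1011 on RA-containing and 747 to 804 on RA-free arrays, with 4 members called higher and 4 lower. Of 10 fibroblast and mesenchyme markers, cells that also express Hox genes by position, 6 were tested, 2 called higher and 3 lower. Their summed level was 7.70 to 9.08 with RA and 9.10 to 11.2 without, and Lum and Pdgfra were at background on every array. Of 8 Schwann and satellite glia markers 6 were tested and 2, Mbp and Fabp7, were called lower. The summed glial level was 21.4 to 22.8 with RA and 12.4 to 15.9 without, so it moved in the same direction as the Hoxc and Hoxd genes below. Of 6 endothelial and 6 immune markers 3 each were tested, with 1 and 2 called lower, at 8.43 to 10.62 against 8.60 to 9.78 and at 18.1 to 23.0 against 13.8 to 16.03. Cdh5 and Tek of the first list and Ptprc and Cd14 of the second were at background on every array. Of 6 adrenocortical markers 2 were tested and 1, Star, was called higher, while the summed level was 0.371 to 0.475 with RA and 0.403 to 0.516 without and Cyp11a1, Cyp11b1, Hsd3b1 and Mc2r were at background on every array. Beside these counts of markers, 28.2% of all tested genes were called lower and 36.1% higher. Dcn of the fibroblast list and Adgre1 of the immune list, both counted as lower, were well above background on 4 RA-containing and 0 RA-free arrays. They thus passed the filter through the RA-containing arrays, and the counts with them are not read against that share. The part of these cell types in the Hox results was not tested.

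In both media the genes detected on every array ended at number 9. Hoxc4, Hoxc5, Hoxc6, Hoxc8, Hoxc9, Hoxd3, Hoxd4, Hoxd8 and Hoxd9 were detected on all 4 arrays of each medium. Hoxc10, the highest-numbered member, was well above background on 1 array of each medium, both from animal 1, where its processed signal was 21.0 units with RA and 17.4 without. On the other 6 arrays its signal was 8.45 to 12.9 units, and it was not tested. Its level was −4.48 ± 0.55 with RA and −4.53 ± 0.36 without (SD, n = 4), and without the filter on dim probes its change of −0.04 did not pass (adjusted p = 0.869 by limma). Of the other genes of both clusters, Hoxc11, Hoxc12, Hoxc13, Hoxd1, Hoxd10, Hoxd11, Hoxd13 and the neighbouring homeobox gene Evx2 were at background on every array, and Hoxd12 was detected on 1 RA-containing array. The set of genes detected on all 4 arrays was thus the same in both media. Because the 9 measurable genes were measured on both sides, none of them passed the filter through 1 medium alone.

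**Figure D1:**
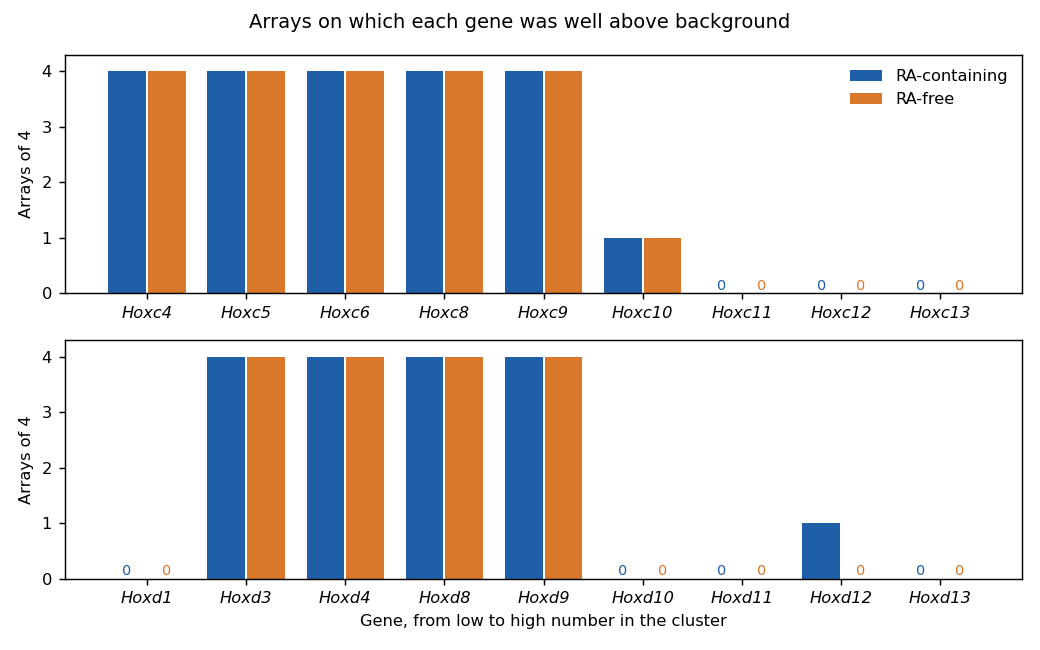
Number of arrays, of 4 in each medium, on which the probe of each Hoxc gene (top) and Hoxd gene (bottom) was well above background; blue bars are RA-containing and orange bars RA-free arrays, and 0 marks a gene detected on none. Genes from Hoxc4 to Hoxc9 and Hoxd3 to Hoxd9 reach 4 in both media, while those with higher numbers and Hoxd1 stay at 1 or 0.

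Without RA, 6 of the 9 measurable genes were called lower and none higher: Hoxc5, Hoxc6, Hoxc8, Hoxc9, Hoxd3 and Hoxd9. This is 66.7% of the tested members, against 28.2% of all tested genes called lower and 36.1% called higher. Hoxc4, Hoxd4 and Hoxd8 did not pass. The falls were of 1.60-fold to 2.57-fold, and the median change of the 9 was −0.79 against 0.07 for all tested genes. In 5 of them, the groups did not overlap, with every RA-free array below every RA-containing one, which held for 23.8% of all tested genes, while 29.5% did not overlap in the higher direction and 53.3% in either. The number called lower was 4 under spike-in scaling and 8 under quantile normalization, and none was called higher under any alternative. The share of all tested genes called lower moved the same way, to 14.2% with spike-in scaling and 33.0% with quantile normalization.

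Hoxc4, the first gene of its cluster and a member of paralog group 4, stayed at a high signal in both media. Its level, given as log2 signal minus the array's own 75th percentile, was 4.57, 4.29, 4.27 and 4.21 in RA-containing medium for animals 1 to 4. In RA-free medium it was 4.13, 4.14, 4.11 and 4.23. The groups overlapped, and animal 4 changed by 0.02 while the other 3 animals were lower. The change was −0.18 (SE 0.09, limma adjusted p = 0.141), with a 95% confidence interval from −0.42 to 0.05. It was called under 3 alternative scalings: quantile normalization (−0.40), normexp with quantile normalization (−0.44) and scaling on always-detected probes (−0.28).

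Hoxc5, the neighbour of Hoxc4, fell by about as much as Hoxc8, and these 2 had the lowest mean changes of the 9. In RA-containing medium its level was 1.63, 0.98, 1.07 and 0.75 for animals 1 to 4. Without RA it was −0.40, 0.0022, −0.29 and −0.33. The groups were clearly apart, with the lowest RA-containing value, in animal 4, above the highest RA-free value, in animal 2. The mean went from 1.11 ± 0.37 to −0.25 ± 0.18 (SD, n = 4), a 2.57-fold fall (change −1.36, SE 0.18, adjusted p = 0.00143 by limma) with an interval from 1.88-fold to 3.51-fold. Animal 1 had the largest fall, −2.02, and the others changed by −0.98 to −1.36. Without animal 1 the change was −1.14, less than that of Hoxc8 (−1.35).

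Hoxc6, which is expressed in the embryonic trunk, was at a high signal in both media and fell in every animal. Its RA-containing levels were 4.15, 4.24, 3.86 and 3.84 and its RA-free levels 3.17, 3.20, 3.16 and 3.41. Without RA, animals 1 to 3 lay close together and animal 4 stood above them, yet still below all RA-containing values. The fall was 1.73-fold (change −0.79, SE 0.12, limma adjusted p = 0.00237). With spike-in scaling the change was −0.63 and the call was lost (adjusted p = 0.0501).

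Hoxc8, a gene of thoracic levels, had the most even fall. Its levels were −0.13, −0.31, −0.49 and −0.67 in RA-containing medium and −1.50, −1.80, −1.80 and −1.93 in RA-free medium. The single animals changed by −1.37, −1.49, −1.31 and −1.25, and animal 1 was the highest and animal 4 the lowest in both media. The mean went from −0.40 ± 0.23 to −1.76 ± 0.18 (SD, n = 4), a 2.56-fold fall (SE 0.07 on a change of −1.36, adjusted p = 0.000102 by limma). Its processed signal was 163 to 276 units with RA and 61.8 to 104 without, over a local background of 24 to 33 units. Under normexp with quantile normalization the change was −0.93.

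Hoxc9, the last gene of its cluster above background throughout, was at a high signal and fell less. Its levels were 3.38, 3.77, 3.48 and 3.59 with RA and 2.94, 2.89, 2.64 and 3.05 without. All RA-free arrays were below all RA-containing ones. The change was −0.67 (SE 0.10, limma adjusted p = 0.00222), or 1.60-fold, and the animals ranged from −0.88 to −0.45. Under spike-in scaling the change was −0.51 and did not pass (limma adjusted p = 0.117), at an SE of 0.27 that all tested members shared there.

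Differences between measurable genes next to each other in number were compared animal by animal. Hoxc5 fell by 1.18 more than Hoxc4 (SD 0.31, n = 4 animals, larger in 4 of 4). Hoxc8 fell by 0.57 more than Hoxc6 and by 0.68 more than Hoxc9, each in 4 of 4 animals, although under normexp with quantile normalization Hoxc8 and Hoxc6 differed in the other direction (Hoxc6 minus Hoxc8, −0.036). The test was an exact sign-flip over the 4 animals, two-sided, which cannot give a p below 0.125, the value for each of these 3 pairs, and the adjusted p over the 7 pairs compared was 0.219. Hoxc5 and Hoxc6 differed by −0.57 ± 0.46 (SD), in 3 of 4 animals (exact p = 0.250, adjusted 0.350). In the main fit the mean falls did not follow gene order, although none of these differences passed. Hoxc4 had the smallest change, Hoxc5 and Hoxc8 the largest, and Hoxc6 and Hoxc9 lay between. Hoxc5 and Hoxc8 also had the lowest levels of the measured Hoxc genes, and the part of probe signal in this ranking was not tested.

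**Figure D2:**
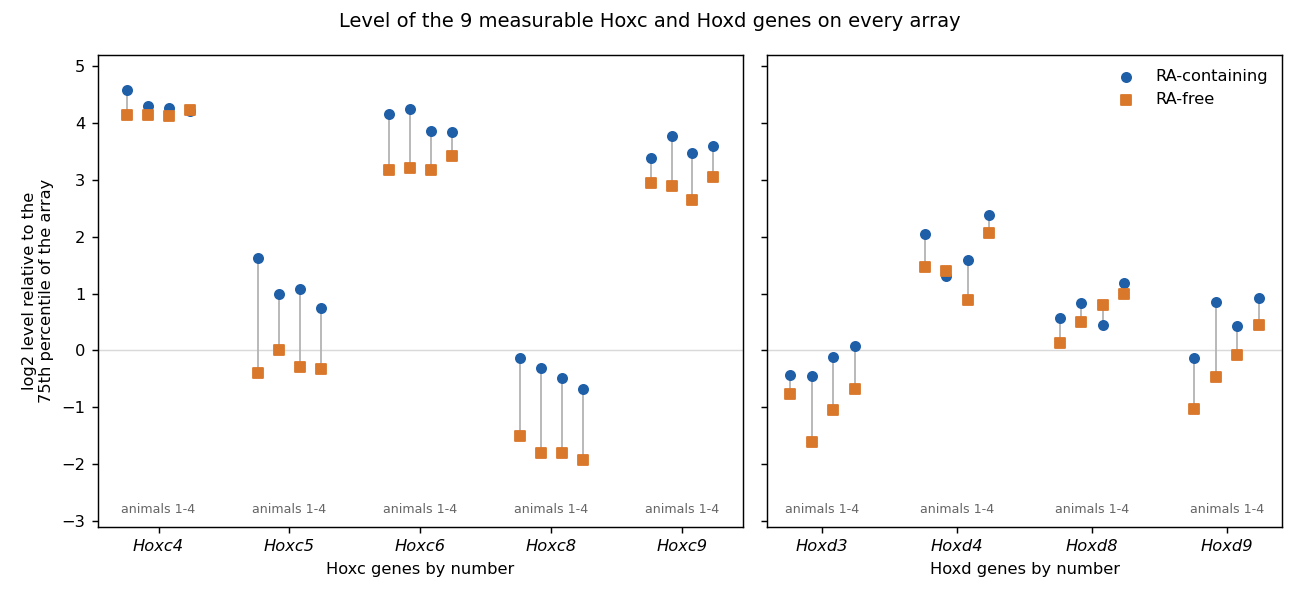
Log2 level, minus the array's 75th percentile, of the 9 measurable Hoxc genes (left) and Hoxd genes (right) on every array. Blue circles are RA-containing and orange squares RA-free arrays, and a grey line joins the pair of 1 animal, with animals 1 to 4 from left to right; the circles and squares of Hoxc5, Hoxc6, Hoxc8, Hoxc9 and Hoxd3 do not overlap. Levels of different genes come from different probes and are not comparable in height.

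Of the Hoxd genes, Hoxd3 and Hoxd9 were called lower, each 1.74-fold, while Hoxd4 and Hoxd8 were not called. RefSeq promoter windows, from 250 bases before to 50 bases after the gene start, were at hand for 5 of the 10 members (Hoxc4, Hoxd3, Hoxd4, Hoxd8 and Hoxd9, assembly GRCm38.p6). The windows of the 4 Hoxd genes are shown because these 4 genes of one cluster include both genes that were called and genes that were not. All lie on the + strand, at chr2:74711743-74712042 for Hoxd3, chr2:74721728-74722027 for Hoxd4, chr2:74704365-74704664 for Hoxd8 and chr2:74697513-74697812 for Hoxd9. Capitals mark CCAAT and the half-sites of RA receptors on either strand. The half-site searched was AGGTCA together with 3 common variants of it. These were AGTTCA, present in 13.99% of all windows, GGGTCA, present in 13.7%, and GGTTCA, present in 10.39%.
Hoxd3: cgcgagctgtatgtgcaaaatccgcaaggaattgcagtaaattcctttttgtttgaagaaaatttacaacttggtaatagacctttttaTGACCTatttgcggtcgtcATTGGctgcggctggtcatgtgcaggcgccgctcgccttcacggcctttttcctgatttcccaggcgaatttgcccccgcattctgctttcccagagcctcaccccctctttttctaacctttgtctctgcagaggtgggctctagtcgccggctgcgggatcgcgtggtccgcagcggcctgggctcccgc
Hoxd4: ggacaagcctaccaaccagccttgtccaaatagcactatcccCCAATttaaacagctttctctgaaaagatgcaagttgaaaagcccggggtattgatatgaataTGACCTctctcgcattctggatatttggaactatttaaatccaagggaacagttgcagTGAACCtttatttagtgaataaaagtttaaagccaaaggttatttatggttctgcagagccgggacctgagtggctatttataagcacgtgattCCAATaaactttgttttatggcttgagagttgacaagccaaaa
Hoxd8: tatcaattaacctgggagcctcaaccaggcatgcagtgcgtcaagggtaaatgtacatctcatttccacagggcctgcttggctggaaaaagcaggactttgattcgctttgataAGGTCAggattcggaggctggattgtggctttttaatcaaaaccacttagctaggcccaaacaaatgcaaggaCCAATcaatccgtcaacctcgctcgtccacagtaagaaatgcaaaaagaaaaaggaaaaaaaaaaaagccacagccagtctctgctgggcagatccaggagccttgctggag
Hoxd9: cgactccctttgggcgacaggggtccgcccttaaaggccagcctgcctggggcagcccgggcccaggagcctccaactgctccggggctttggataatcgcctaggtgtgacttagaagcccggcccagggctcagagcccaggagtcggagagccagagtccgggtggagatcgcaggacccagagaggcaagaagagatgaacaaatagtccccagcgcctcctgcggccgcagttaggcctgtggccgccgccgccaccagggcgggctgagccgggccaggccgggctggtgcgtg
The window of Hoxd3 held 1 half-site, that of Hoxd4 held 2, that of Hoxd8 held 1 and that of Hoxd9 none, and the window of Hoxc4, not printed, held 2. At least 1 half-site was present in 43.7% of the 32851 windows of the table. AGGTCA itself began at position −161 from the start of Hoxd3, −145 from Hoxd4, −146 from Hoxc4 (each on the opposite strand) and −135 from Hoxd8, and was found in 16.3% of all windows. A direct repeat of these half-sites with a spacer of 1, 2 or 5 bases, the usual form of an RA response element, was in none of the 5 windows and in 0.222%, 0.268% and 0.0974% of all. CCAAT was present in 37.4% of all windows and in those of Hoxc4, Hoxd3, Hoxd4 and Hoxd8. Of the called genes with a window, Hoxd9 had neither motif and Hoxd3 had both. Hoxc4, Hoxd4 and Hoxd8, which were not called, also had both. Such matches are a description of these letters alone.

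Hoxd3, a paralog of Hoxb3, was the lowest-numbered Hoxd gene that was detected. Its levels were −0.43, −0.45, −0.12 and 0.08 with RA and −0.77, −1.61, −1.04 and −0.69 without. All RA-free values lay below all RA-containing ones, and animal 2 was the lowest in both media. The change was −0.80 (SE 0.14, limma adjusted p = 0.00418), with an interval of the fall from 1.36-fold to 2.21-fold. Per the gene table, the noncoding gene Hoxd3os1 overlaps Hoxd3, and its promoter window lies on the other strand. Its probe was well above background on all arrays and had a change of 0.14 (SE 0.08, adjusted p = 0.192), with levels of −0.99, −0.89, −0.93 and −0.73 with RA and −0.94, −0.90, −0.74 and −0.41 without. The paired change of Hoxd3 was below that of Hoxd3os1 by 0.93 ± 0.37 (SD) in 4 of 4 animals (exact sign-flip p = 0.125, the smallest possible).

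Hoxd4, whose gene lies within the annotated span of Hoxd3, is a textbook RA-responsive gene of the hindbrain. Its RA-containing levels were 2.04, 1.31, 1.60 and 2.38 and its RA-free levels 1.47, 1.39, 0.89 and 2.06. The groups overlapped, and animals 1 and 4 were above animals 2 and 3 in both media. The change of −0.38 (SE 0.14) did not pass (adjusted p = 0.0586 by limma), and its interval, from −0.73 to −0.03, allows a fall of up to 1.66-fold. The call depended on the setting: without animal 2, which changed by 0.08, it was called (−0.53, adjusted p = 0.0173), as it was under 5 other alternatives, with an adjusted p between 0.00764 and 0.546 over all 13.

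Hoxd8 had the smallest change of the 9. Its levels were 0.57, 0.84, 0.45 and 1.19 with RA and 0.13, 0.49, 0.80 and 1.00 without. The media overlapped almost wholly, and animal 3 was higher without RA (0.35) while the other 3 animals were lower. The change was −0.16 (SE 0.14, limma adjusted p = 0.375), with an interval from a 1.42-fold fall to a change of 0.20. Without animal 3 it was −0.32 and was called (adjusted p = 0.0257), and under spike-in scaling it was 0.0064 (adjusted p = 0.987).

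Hoxd9, the last detected gene of its cluster, fell in every animal although its groups overlapped. Its levels were −0.14, 0.85, 0.43 and 0.92 with RA and −1.04, −0.47, −0.08 and 0.44 without. Animal 1 was the lowest and animal 4 the highest in both media, and the RA-free value of animal 4 exceeded the RA-containing value of animal 1. The paired changes were −0.90, −1.32, −0.51 and −0.48, with a mean of −0.80 (SE 0.16, adjusted p = 0.00618 by limma). Without the block for the animal pairing, the call was lost (adjusted p = 0.0626). Hoxd8 and Hoxd9 differed in their change by 0.65 ± 0.32 (SD) in 4 of 4 animals (exact p = 0.125, the smallest possible, adjusted 0.219 over the 7 pairs), while Hoxd3 and Hoxd4 (exact p = 0.375) and Hoxd4 and Hoxd8 (exact p = 0.625) differed by less than their spread over the animals.

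**Figure D3:**
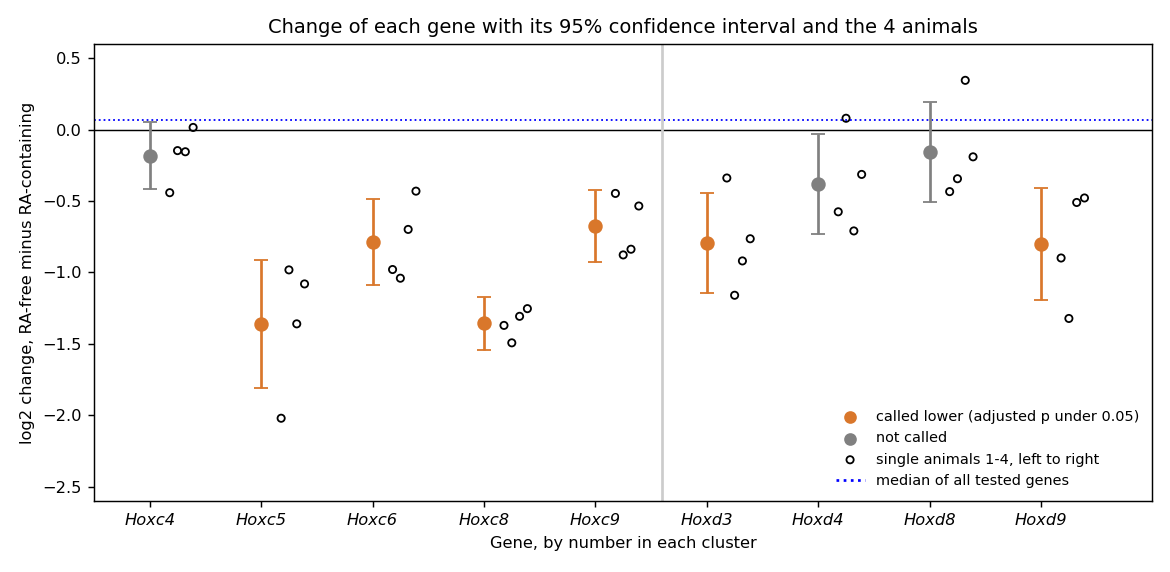
Log2 change, RA-free minus RA-containing, of each of the 9 measurable genes by number (Hoxc left of the grey line, Hoxd right). Filled points are the means with 95% confidence intervals of the fit, orange for genes called lower (adjusted p under 0.05) and grey for genes not called, open circles are the 4 animals, and the dotted line is the median of all tested genes at 0.07. Hoxc5 and Hoxc8 lie lowest at −1.36, and the intervals of Hoxc4 and Hoxd8 include 0.

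Averaged over their measurable genes, the 5 Hoxc genes changed by −1.05, −0.91, −0.87 and −0.66 in animals 1 to 4 and the 4 Hoxd genes by −0.56, −0.69, −0.45 and −0.44. Among same-numbered genes of both clusters, chosen after their values were seen, Hoxc8 fell by 1.20 ± 0.31 (SD) more than Hoxd8 in 4 of 4 animals (exact sign-flip p = 0.125, adjusted 0.208 over 5 pairs). Hoxc4 and Hoxd4 differed by 0.20 ± 0.33 and Hoxc9 and Hoxd9 by 0.13 ± 0.39 (exact p = 0.375 and 0.5), less than the spread over the animals.

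Of the variation within the media, the share that lay between animals was 93.9% for Hoxc8, 87.5% for Hoxd9, 86.7% for Hoxd4, 75.7% for Hoxd8 and 75.3% for Hoxd3. It was 59.4% for Hoxc9, 36.4% for Hoxc4, 35.0% for Hoxc5 and 27.4% for Hoxc6, against a median of 67.8% over all tested genes. All 4 Hoxd genes were thus above that median, and 4 of the 5 Hoxc genes below it. Arrays that differ by noise alone also give such a share, so it does not measure an effect of the animal by itself.

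Deviations from the mean of the medium were also set against each other over the 8 arrays, as a description, since the pairs share arrays, animals and scaling. Hoxd8 and Hoxd9 deviated together (Pearson r = 0.89), as did Hoxc4 and Hoxc5 (r = 0.82). The 6 pairs within Hoxd had r from 0.16 to 0.89 with a median of 0.32, and the 10 pairs within Hoxc had r from −0.46 to 0.82 with a median of 0.41. Hoxc9 stood apart from Hoxc4, Hoxc5 and Hoxc8, with r below 0 to each. The 20 pairs between the clusters had a median of −0.20, down to −0.80 for Hoxc8 with Hoxd9.

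**Figure D4:**
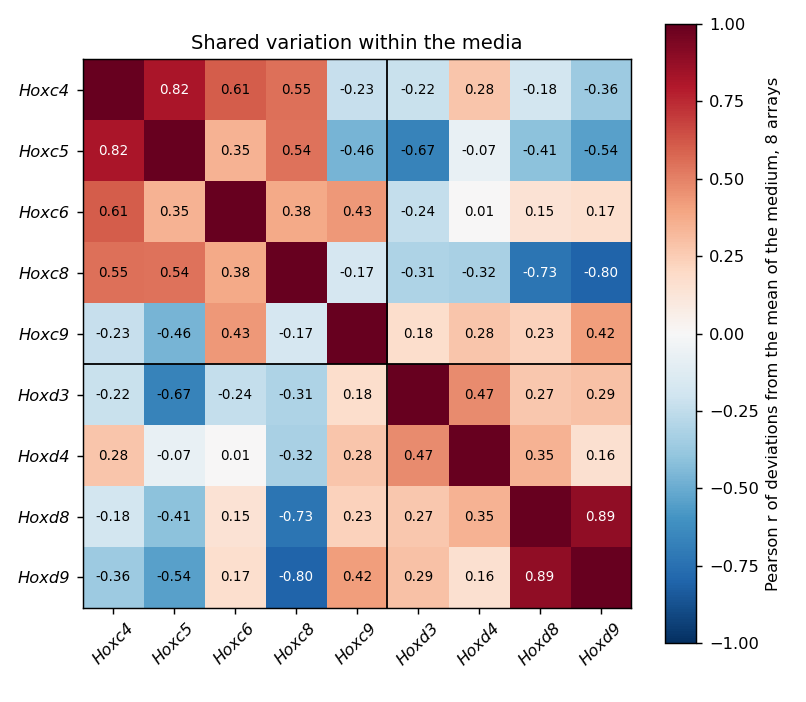
Pearson r, over 8 arrays, of the deviations of each pair of genes from the mean of its medium, from −1 (blue) to 1 (red); black lines part Hoxc from Hoxd genes. The 6 Hoxd pairs are all above 0, the highest at 0.89, and the lowest value, −0.80, is that of Hoxc8 with Hoxd9.

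Of the 7 tested Hoxb genes, Hoxb3 alone was detected on all 8 arrays. The other 6 were detected on all 4 RA-containing arrays and at background on at least 1 RA-free array, so that they passed the filter through the RA-containing arrays, and no summary over the cluster is given. The paralogs of group 3 were both well above background on all arrays: the level of Hoxb3 was 2.09, 2.32, 2.17 and 2.08 with RA and −1.72, −1.77, −1.96 and −1.54 without. Its change of −3.92 was below that of Hoxd3 by 3.12 ± 0.29 (SD) in 4 of 4 animals (exact sign-flip p = 0.125, the smallest possible, adjusted 0.208). A second, dimmer probe of Hoxb3 was at background on all 4 RA-free arrays. In groups 5, 6 and 8, Hoxb5, Hoxb6 and Hoxb8 were at background on the RA-free arrays; the fall was at least 1189-fold for Hoxb5, 139-fold for Hoxb6 and 10.4-fold for Hoxb8, whereas Hoxc5, Hoxc6, Hoxc8 and Hoxd8 stayed well above background on all 4. Hoxb4, well above background on 1 RA-free array, had a change of −4.18 without an exact size, next to −0.18 for Hoxc4 and −0.38 for Hoxd4.

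Of the Hoxa genes 4 of 11 were tested and 2 called lower, beside 28.2% of all tested genes. These were Hoxa5 (−4.22, without an exact size) and Hoxa7 (−1.05, SE 0.29, limma adjusted p = 0.0216). Hoxa5 was well above background on 4 RA-containing arrays and 1 RA-free array. It thus passed the filter through the RA-containing arrays, so the count is not read against that share. Hoxa7 differed widely between animals, with levels from −3.18 to 2.10 with RA and from −3.94 to 1.95 without. Hoxa2, Hoxa4, Hoxa10, Hoxa11, Hoxa13, Hoxb1, Hoxb9 and Hoxb13 were at background on every array.

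**Figure D5:**
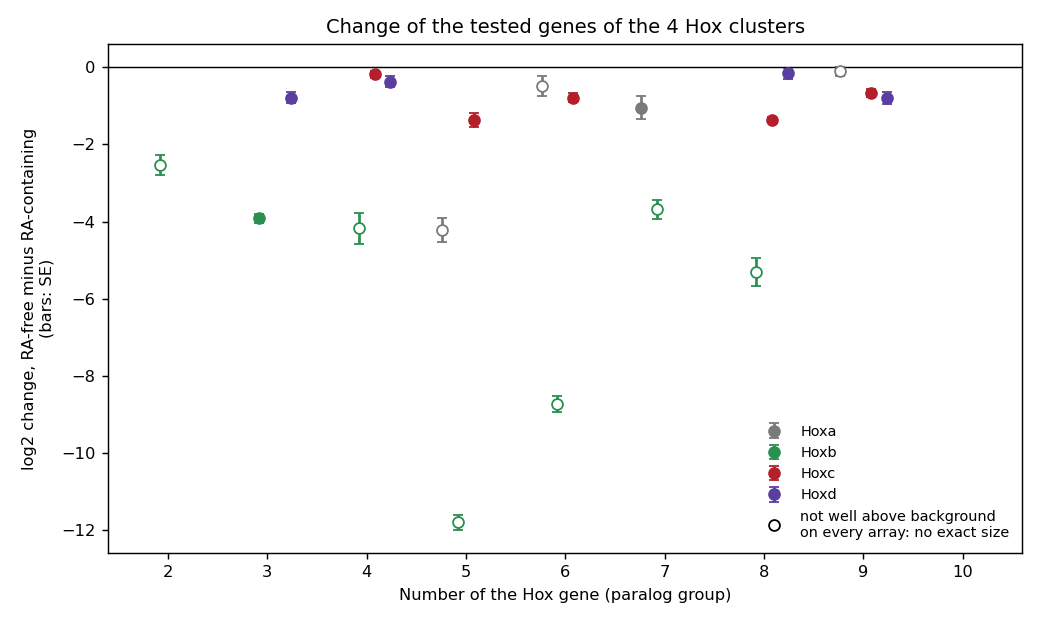
Log2 change, RA-free minus RA-containing, of all tested Hox genes against their number, coloured by cluster, with bars for the SE of the fit. Open points were not well above background on every array, so their size is not exact. Every Hoxc and Hoxd point lies between −1.36 and −0.16. Of the Hoxb points, Hoxb3 alone is filled, at −3.92.

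Genes flanking the clusters were called in both directions at Hoxc and in the higher direction alone at Hoxd. Beyond Hoxc4 on one side of the Hoxc cluster, Smug1, a uracil-DNA glycosylase, fell by 1.65 (SE 0.10, adjusted p = 0.000129), and next to it Cbx5, which encodes heterochromatin protein 1 alpha, rose by 1.32 (SE 0.08, adjusted p = 0.000142), as did Hnrnpa1 (0.86). On the other side, Calcoco1 fell by 1.06 (SE 0.10) and Atp5g2, a subunit of ATP synthase, rose by 0.83 (SE 0.07). At Hoxd, Lnpk on the Hoxd13 side rose by 1.16 (SE 0.08) and Mtx2 on the Hoxd1 side by 0.51 (SE 0.10, adjusted p = 0.00606 by limma). Not next to the cluster, Hnrnpa3 rose by 1.04, while Atf2 and Chn1 had changes of 0.14 and −0.04 and did not pass (adjusted p = 0.164 and 0.670). In all, 6 of 10 flanking genes were called higher and 2 lower, beside 36.1% and 28.2% of all tested genes.

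Genes known to work with or upstream of Hox proteins changed as follows, beside 28.2% of all tested genes called lower and 36.1% called higher. Of 9 cofactors of the Meis, Pbx and Pknox families, homeodomain proteins that bind DNA together with Hox proteins, 5 were called higher (Meis1, Meis2, Pbx2, Pknox1 and Pknox2) and 2 lower (Pbx3, −2.65, and Meis3, −0.84), with a median of 0.34. Of 20 RA signalling genes 16 were tested, 8 called lower and 3 higher, with a median of −0.26. Among the lower ones, Cyp26b1 was well above background on 4 RA-containing arrays and 1 RA-free array. It thus passed the filter through the RA-containing arrays. The RA receptor Rarb, itself a known RA target, had a change of −1.77 and Rarg one of −0.68. Of 15 regulators of Hox clusters 11 were tested, 7 called higher and none lower, with a median of 0.45, and 36.1% of all tested genes were called higher. The higher ones included the Polycomb repressor subunits Ezh2 (1.58), Suz12 (0.92), Eed (0.66), Cbx2 (0.51) and Rnf2 (0.37), and Ctcf (0.77), the insulator protein. Cdx2 and Cdx4, homeobox activators of Hox genes in the embryo, were at background on every array.

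By level over the 8 arrays, the genes most like Hoxc5, taken as the member with the lowest mean change (below Hoxc8 by less than the SE of either, and not without animal 1), were Lama4 (Pearson r = 0.985), Timp3 (0.982) and Mpped1 (0.982), with changes of −0.43, −0.76 and −0.68. These r values include the difference between the media. Each member was also set against the 21 other tested genes with a Hox symbol, the noncoding Hoxd3os1 and Hoxa11os among them. Hoxc5 was most like Hoxc8 (r = 0.955), Hoxc6 and Hoxc9 most like Hoxb3 (0.952 and 0.938). Hoxc4 was most like Hoxc5 (0.833) and Hoxd8 most like Hoxd9 (0.821). The best matches of Hoxc8, Hoxd3 and Hoxd9 were Hoxb5 (0.966), Hoxb8 (0.843) and Hoxa5 (0.823). Hoxb5 and Hoxb8 were at background on every RA-free array, and Hoxa5 was well above background on only 1 of them. The r values of these matches thus mix background signal with the difference between the media. Hoxd4 had the weakest best match, Hoxd3 at r = 0.592.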

How the data were processed

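Total RNA of 8 sphere samples was hybridised to 1-colour (Cy3) Agilent arrays. Per the file headers, all arrays came from 1 slide and 1 scan, and the authors read the spots with Feature Extraction 11.5.1.1 from Agilent; the array annotation is on mm9. The deposited intensity had its background subtracted and spatial trend removed by the software, with no scaling across arrays. The flags for spots well above background are the software's. The authors' deposited table of log2 values, centred on each probe's mean over the 8 arrays, was used as an alternative. Set against the scanner values it correlated at 0.9999 or more on every array, and its direction and centring are settled, while its exact scaling stays unknown. Its column medians were −0.23, −0.22, 0.02 and −0.01 for RA-containing and −0.07, 0.01, 0.17 and 0.20 for RA-free animals 1 to 4. No non-control spot reached saturation.

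Processed signals were taken to log2, each array's 75th percentile was subtracted, outlier spots were left out and spots of one probe were averaged. Probes were named through accession in a RefSeq table of GRCm38.p6 (27206 probes with 1 symbol and 28411 with none), a build other than that of the array annotation, so that the table gave names and gene order alone. Tested genes had a probe well above background on at least 4 arrays, and the brightest probe stood for a gene. The test was limma (version 3.58.1, R 4.3.3), in which each animal was a fixed term. The series' description gives the pairing, and deviations from the medium's mean correlated at 0.52, 0.30, 0.19 and 0.33 within the 4 pairs. On simulated data with known changes, the fit was checked before use. The members and lists were chosen with earlier results of these data known. Named genes were the members, the other genes of both clusters, the flanking genes, and called genes of fixed lists. The number of arrays limits the precision. The labels call the 4 animals separate biological replicates. Alternatives were other scalings, background correction, filters, the fit without the block, and leaving out each animal.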

Additional observations from a re-analysis of the deposited data

Results flagged for a closer look

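The RA-free level of Hoxc6 in animal 4, 3.41, stood apart from the other 3 animals, which lay between 3.16 and 3.20, by a test for a single outlying value in a group of 4 (Dixon's test at the 95% level). It was the only one of 30 groups tested, over the 9 measurable genes and Hoxd3os1, and chance marks about 1 in 20. Without animal 4 the change of Hoxc6 was −0.91 in place of −0.79, and it was called both ways.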

How the results depend on the processing

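The number of genes called was 8705, and 5257 under spike-in scaling; the cause was not tested. The labels give 40 or 200 ng of labelled RNA without saying which array had which amount, and the part of that amount in the spike-in scaling was not tested. Under spike-in scaling Hoxd8 turned to 0.0064 in the fit over genes and in that over all probes. The difference of Hoxc6 and Hoxc8 (−0.036 under normexp with quantile normalization) and that of Hoxd4 and Hoxd8 (−0.44 to 0.053 without single animals, above 0 without animal 3) also turned sign. Without single animals, 7350 to 8245 genes, 6 to 7 members lower and 0 higher were called. With the animal pairing left out of the fit (no replicate block), 8022 genes and 5 members were called, Hoxd9 being lost, and no other member's call changed. Over 13 alternatives Hoxc5, Hoxc8 and Hoxd3 were always called lower. Hoxc6 and Hoxc9 lost the call under spike-in scaling alone, and Hoxc4 was called under 3 alternatives and Hoxd4 under 6. Under spike-in scaling the fit over genes gave every tested member the same SE, 0.27. In the main fit the SE was 0.12 for Hoxc6 and 0.10 for Hoxc9. In the fit over all 29358 tested probes, Hoxd3 and Hoxd9 also lost it under spike-in scaling (adjusted p = 0.0593 and 0.0563 by limma). The normexp alternative used the median spot signal, since the files used here hold no mean signal. The slide could not serve as a block, as there was 1.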
